A study of Homo sapiens with 18 samples.

Results

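The genes of the receptor channels that open when a neurotransmitter binds were examined in peak lists from chromatin immunoprecipitation followed by sequencing (ChIP-seq) of LNCaP cells, a human prostate cancer line that responds to androgen. They were taken from GENCODE version 44 on hg19 as the protein-coding genes whose symbols begin with GABR, CHRN, GRIA, GRIK, GRIN1, GRIN2 or GRIN3 or are GLRA or GLRB with or without a number. The rule found 56 of 20162 protein-coding genes. It took in GRIK1-AS2, an antisense-named gene inside GRIK1 that encodes no receptor subunit and held no peak, so 55 members were subunit genes. They fall into 19 GABA-A, 16 nicotinic acetylcholine, 4 glycine, 4 AMPA, 7 NMDA and 5 kainate receptor subunits.

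EHMT1, a methyltransferase of lysine 9 on histone H3, carried a V5 tag and was expressed from a lentiviral construct that doxycycline switches on. It was either wild type (WT) or had one or both of a pair of adjacent lysines changed to arginine, named K450R, K451R and K450RK451R in the labels. The 4 puromycin-selected lines all received 0.5 µg/ml doxycycline over 2 days, and their chromatin was enriched with an antibody to V5 or one to histone H3 dimethylated at lysine 9 (H3K9me2). Parental LNCaP cells, untreated, gave the EHMT1 list with an antibody to the endogenous protein, so that list differs from the V5 lists in the construct, the drug and the antibody. The 18 samples form 9 groups of 2 replicates with 1 deposited peak list per group, so no value below has a replicate error and no test between conditions was made. Nothing in the sources used here says that the lines are single clones or that they lack their own EHMT1, and peak lists hold no expression values against which the cell label could be checked.

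The lists held from 637 peaks (K450R V5) to 14799 peaks (K450RK451R V5), with 1748 for EHMT1. The reads behind them, estimated from the genome-wide background in each list, numbered from 8790000 to 27570000, with 26830000 for EHMT1 and 22680000 for K450RK451R V5. Fold is the ratio of stacked reads at the summit to the local background, with 1 added to each. Its 95% exact Poisson interval was computed from the whole number of stacked reads and, like the Wilson intervals of shares, covers counting error only.

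Receptor channels of this kind are built from several subunits around a pore. GABA-A and glycine receptors conduct chloride and usually inhibit neurons, whereas AMPA, kainate and NMDA receptors are opened by glutamate and nicotinic receptors by acetylcholine, and these excite them. Many genes of neuronal function are held silent outside the nervous system by REST, a zinc finger repressor that binds an element called RE1 and recruits co-repressors, among them H3K9 methyltransferases. RE1 was searched as a 17-base consensus on both strands in windows reaching 100 bases to either side of each summit, with up to 1 mismatch at its 14 informative positions.

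The following stretches are shown because they carry RE1 matches under low-copy summits at these genes. Each is read 5′ to 3′ on the strand of the element, with the element in capitals, and stretches near an untranslated region are cut to 29 bases. The sequence is that of the reference.

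GRIK3 first EHMT1 peak, chr1:37389983-37390043, minus strand: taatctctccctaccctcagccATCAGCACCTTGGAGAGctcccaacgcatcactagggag
GRIK3 second EHMT1 peak, chr1:37432035-37432095, plus strand: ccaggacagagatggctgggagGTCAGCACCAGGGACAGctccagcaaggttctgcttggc
GRIK3 K450RK451R V5 peak, chr1:37486443-37486503, minus strand: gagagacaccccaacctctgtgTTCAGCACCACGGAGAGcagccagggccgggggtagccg
CHRNB2 EHMT1 peak, chr1:154540424-154540452, plus strand: cgcggcTTCAGCACCACGGACAGcgcccc
GRIA2 EHMT1 and K450RK451R V5 peaks, chr4:158141522-158141582, minus strand: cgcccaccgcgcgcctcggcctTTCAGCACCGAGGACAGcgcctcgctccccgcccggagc
GLRA1 EHMT1 and K450RK451R V5 peaks, chr5:151304309-151304337, plus strand: aggcgtTTCAGCACCACGGAGAGcgtcca
GRIN3A EHMT1 peak with 1 mismatch, chr9:104499197-104499257, minus strand: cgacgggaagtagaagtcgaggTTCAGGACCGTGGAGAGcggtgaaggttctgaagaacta

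Over the 29 bases that all of them share, the 7 stretches were identical to each other at 55.2% to 75.9% of bases, with a median of 65.5% over 21 pairs. These bases include the element, and the stretches were chosen for a match to the same consensus. Part of this identity was therefore set by the choice.

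Peaks at the receptor channel genes came from the K450RK451R V5 list and the EHMT1 list. The K450RK451R V5 list had 42 peaks at 24 of the 56 genes (42.9%, 95% Wilson interval 30.8% to 55.9%), beside 27.7% of all protein-coding genes. The EHMT1 list had 8 peaks at 6 genes (10.7%, 95% interval 5.004% to 21.5%), beside 2.67% of all protein-coding genes. All 6 genes with an EHMT1 peak, among them GRIK3, CHRNB2, GRIA2, GLRA1 and GRIN3A, also had a K450RK451R V5 peak. Of these 6 genes, 4 were in the longest of 10 bins of gene length. In that bin 73.7% of other protein-coding genes had a K450RK451R V5 peak. In the bins of CHRNB2 and GLRA1 the shares were 13.6% and 52.7%. The share over all protein-coding genes with an EHMT1 peak is not given here.

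**Figure D1:**
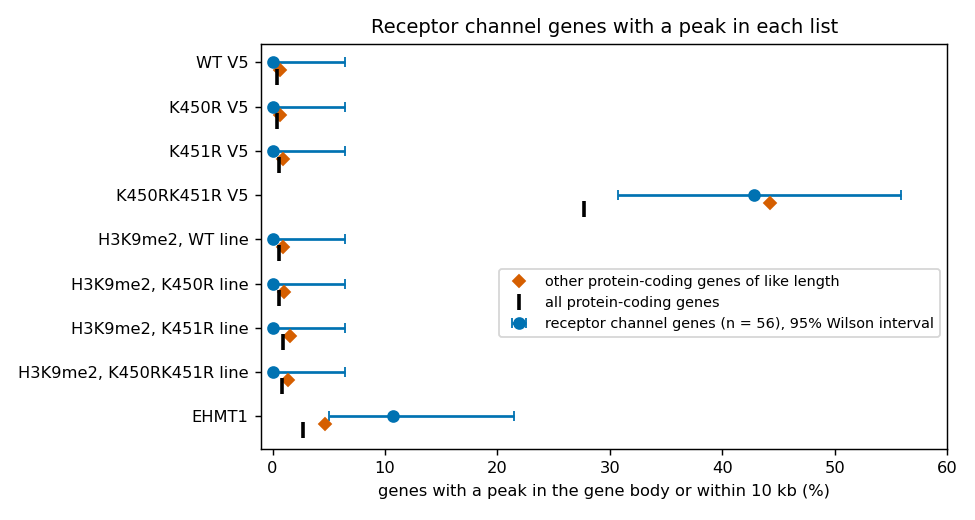
Share of genes with a peak in the gene body or within 10 kb (x axis, %) in each of the 9 lists. Circles are the 56 receptor channel genes with 95% Wilson intervals, diamonds the share that other protein-coding genes of like length give, and bars all protein-coding genes. In the K450RK451R V5 list the circle (42.9%) lies beside the diamond (44.3%), and in the EHMT1 list the diamond (4.64%) lies below the interval of the circle (10.7%).

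Long genes hold more peaks by their length, and the median receptor channel gene spans 73.3 kb against 27.2 kb over all protein-coding genes. When each receptor channel gene was given the share of occupied genes among other protein-coding genes in its bin of gene length, with 10 bins of equal numbers, 24.8 genes with a K450RK451R V5 peak would be found, and 24 were. For EHMT1 the same sum was 2.60 genes and 6 were found. Per megabase of gene body and flanks, K450RK451R V5 peaks had a density of 4.20 at receptor channel genes (95% interval 3.03 to 5.67) against 5.25 at protein-coding genes, a value inside the interval. EHMT1 peaks had a density of 0.80 per Mb (95% interval 0.345 to 1.58) against 0.351, and this interval includes the value over protein-coding genes.

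**Figure D2:**
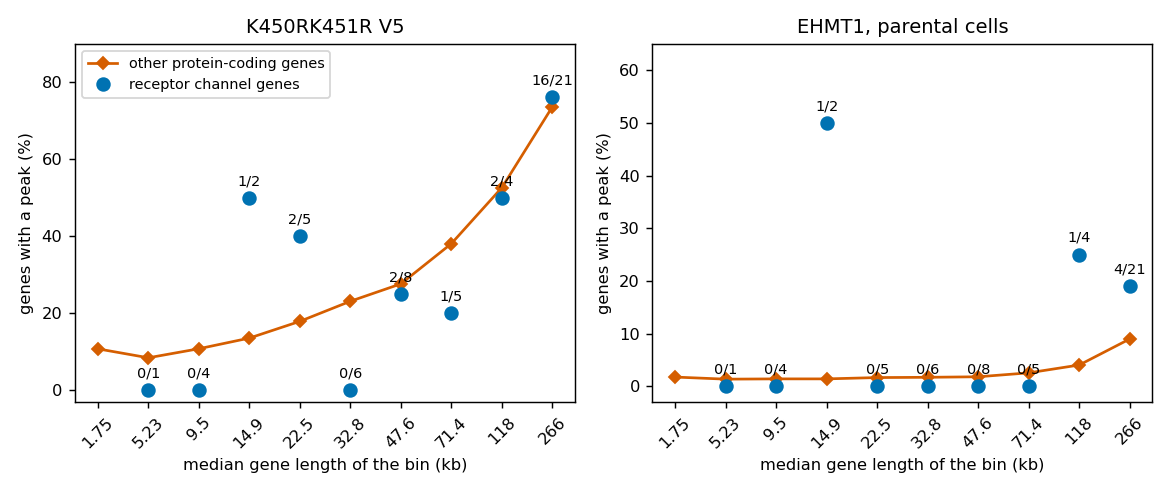
Share of genes with a peak (y axis, %) by gene length, in 10 bins with equal numbers of genes labelled by their median length (x axis, kb). Diamonds are other protein-coding genes and circles receptor channel genes, with the number occupied over the number in the bin. In the longest bin 16 of 21 receptor channel genes had a K450RK451R V5 peak, beside 73.7% of the other genes, and 4 of 21 had an EHMT1 peak, beside 8.97%.

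The occupied genes were the longer ones in general, with a median of 235.3 kb against 40.2 kb for the 32 genes without a peak. CHRNB2, at 12.2 kb, was the shortest with a peak, and GRIK2, at 1119 kb, the longest gene of all and the holder of 5 peaks. Long genes without a peak also occurred, up to GRIN2B at 544 kb.

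The inhibitory receptors gave the EHMT1 peak with the highest fold. GLRA1, the α1 subunit of the glycine receptor and a gene of hereditary startle disease, had an EHMT1 peak in the untranslated part of exon 1, at chr5:151304196-151304408 and 0.10 kb after the canonical start, with a fold of 13.8 (95% interval 9.60 to 19.2) from 33 reads. It ranked 282 of 1748 by −log10 p, and its −log10 q was 28.3. The other EHMT1 peaks at receptor channel genes ranked from 740 (GRIK3) to 1591 (CHRNB2), with a −log10 q from 14.3 down to 5.21. The K450RK451R V5 list had a peak over the same site of GLRA1, with a fold of 5.43 (2.78 to 9.83) from 9 reads. A second K450RK451R V5 peak lay in intron 3 of GLRA1, with a fold of 4.89 from 8 reads and high-copy sequence under its summit. The other 7 lists held no peak at GLRA1, as at every other receptor channel gene.

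Among the glutamate receptors, GRIK3, the kainate receptor subunit GluK3, had a pair of EHMT1 peaks, both deep in intron 1. The peak at chr1:37389936-37390060 had a fold of 9.81 (6.18 to 14.9) from 20 reads and lay 110 kb after the start. The other, at chr1:37432010-37432155, had a fold of 9.53 (5.85 to 14.8) from 18 reads and lay 68.0 kb after it. A K450RK451R V5 peak was found at a further RE1 match of the same intron, 13.6 kb after the start, with a fold of 4.89 (2.42 to 9.11) from 8 reads. The 3 sites of GRIK3 were thus called in 1 list each.

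GRIA2, the AMPA receptor subunit that makes the channel impermeable to calcium, had EHMT1 and K450RK451R V5 peaks over 1 site, at chr4:158141478-158141585 for EHMT1 and at −0.33 kb from the canonical start. The EHMT1 fold was 7 (3.96 to 11.6) from 13 reads, and the K450RK451R V5 fold 4.89 (2.42 to 9.11) from 8. A further K450RK451R V5 peak lay at −8.02 kb from that start, inside a longer transcript, with a fold of 5.43 (2.78 to 9.83). Its summit window held 0 stretches of 51 bases that occur once in the genome.

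GRIN3A encodes an NMDA receptor subunit that lowers the calcium flow of the receptor. It had an EHMT1 peak at chr9:104499182-104499294, in intron 1 and 1.70 kb after the start, with a fold of 5.95 (3.43 to 9.72) from 14 reads. The RE1 match there was the single one under an EHMT1 peak at these genes with a mismatch. A second EHMT1 peak, at chr9:104390578-104390687 in coding exon 4, had a fold of 6.51 (3.68 to 10.8) from 13 reads and was the 1 EHMT1 peak of the set with no RE1 match. Its 61 bases at the summit were as follows.

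GRIN3A EHMT1 peak without RE1, chr9:104390572-104390632, plus strand: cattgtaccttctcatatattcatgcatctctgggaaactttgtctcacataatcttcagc

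The K450RK451R V5 list had a pair of peaks in intron 1 of GRIN3A, 14.3 and 14.5 kb after the start, with folds of 4.59 (2.27 to 8.55) and 5.61 (2.96 to 9.89). Neither overlapped an EHMT1 peak, and both lay in high-copy sequence. The peak 14.3 kb after the start held an RE1 match without a mismatch.

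CHRNB2, the β2 subunit of the main nicotinic acetylcholine receptor of the brain, had the EHMT1 peak with the lowest fold, 5.81 (3.29 to 9.64) from 13 reads, at chr1:154540345-154540538 in the untranslated part of exon 1. The K450RK451R V5 peak at chr1:154540412-154540576 overlapped it, with a fold of 4.36 (2.36 to 7.52) from 11 reads and a summit in the coding part of exon 1. The RE1 match lay inside both peaks but crossed the edge of the window around the K450RK451R V5 summit, so it was not counted there. Both windows were rich in G and C (77.6% and 73.6%), against a median of 54.98% over the EHMT1 peaks at receptor channel genes.

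Thus GLRA1, GRIA2 and CHRNB2 had a site called in both lists, and GRIK3 and GRIN3A had different sites in the 2 lists. In shares, 3 of 8 EHMT1 peaks at receptor channel genes overlapped a K450RK451R V5 peak (37.5%, 95% interval 13.7% to 69.4%), beside 61.5% of all EHMT1 peaks and 13.6% of the 419 EHMT1 peaks with an RE1 match. In the other direction, 3 of 42 K450RK451R V5 peaks overlapped an EHMT1 peak (7.14%), beside 7.26% of the whole list.

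**Figure D3:**
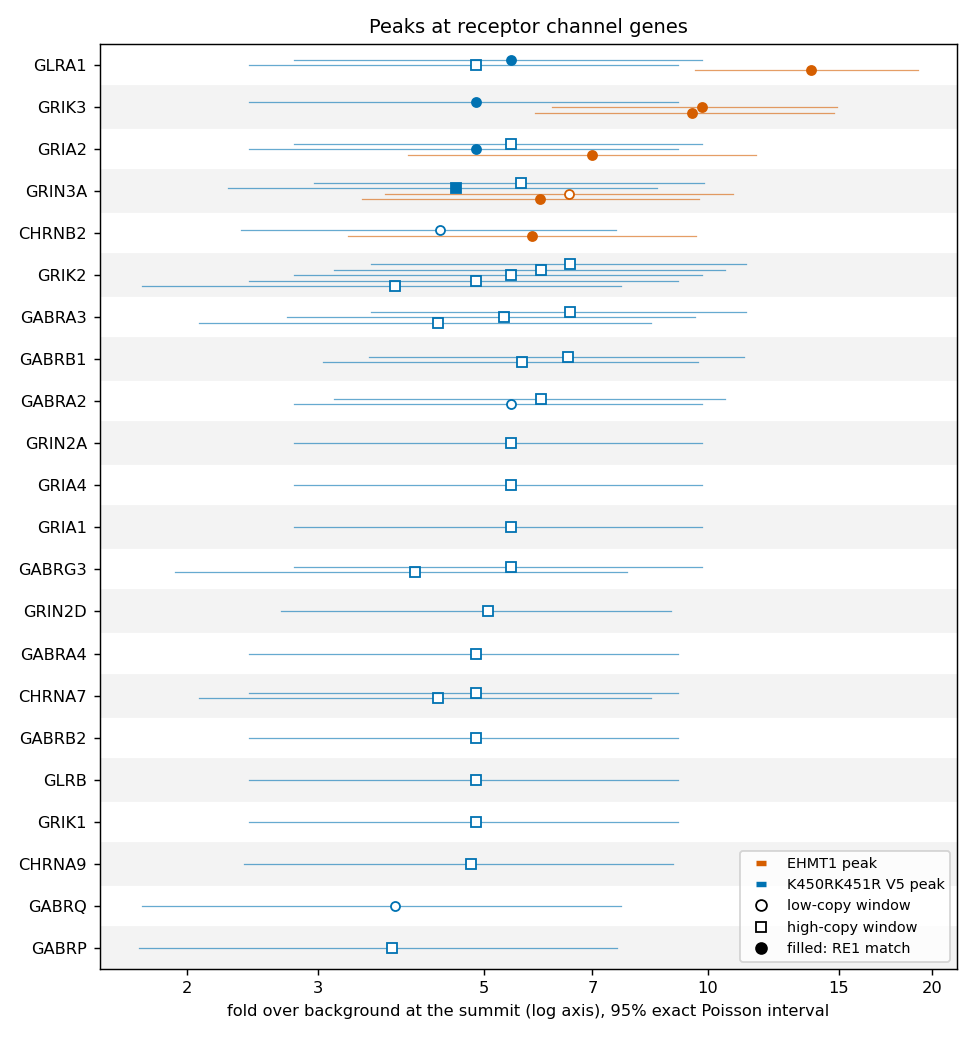
Fold over background at the summit (x axis, log scale) of peaks at 22 receptor channel genes (y axis), with 95% exact Poisson intervals. Orange marks EHMT1 and blue K450RK451R V5, circles low-copy and squares high-copy summit windows, and filled symbols an RE1 match. The 7 EHMT1 peaks plotted, at folds of 5.81 to 13.8, are circles and 6 of them are filled, whereas 29 of the 35 K450RK451R V5 peaks plotted, at folds of 3.76 to 6.52, are squares.

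The remaining 18 genes had K450RK451R V5 peaks and no EHMT1 peak. The 10 with the highest folds held 24 peaks. GRIK2, the kainate receptor subunit GluK2, had 5 peaks with folds of 3.804 to 6.52. All were in high-copy sequence, 3 of them before the canonical start in longer transcripts and the others in introns 7 and 11. GABRA3, the α3 subunit of the GABA-A receptor on the X chromosome, had 3 peaks in introns 1, 5 and 9 with folds of 4.35 to 6.52. GABRB1, the β1 subunit, had a pair in introns 4 and 5 with folds of 5.63 and 6.49. In none of these genes did a peak lie in low-copy sequence.

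GABRA2, the α2 subunit, had a peak at chr4:46391379-46391532, at −0.06 kb from a start and in low-copy sequence, with a fold of 5.43 (2.78 to 9.83) from 9 reads, and another in intron 3 with a fold of 5.98 in high-copy sequence.

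The highest folds of GRIA1, GRIA4 (AMPA receptor subunits), GABRG3 (the γ3 subunit) and GRIN2A (the NMDA receptor subunit GluN2A) were the same, 5.43 (2.78 to 9.83) from 9 reads each, and GRIN2D followed with 5.07 (2.67 to 8.94) from 10 reads. These peaks were intronic and in high-copy sequence. The same value recurs because a peak of 9 reads over the background common to the genome gives a single fold, and 24 of the 42 peaks rested on 8 or 9 reads. Their intervals overlap, so no order among these genes can be read from the folds.

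CHRNA9, CHRNA7, GABRA4, GABRB2, GABRP, GABRQ, GLRB and GRIK1 had 9 K450RK451R V5 peaks with folds of 3.76 to 4.89. The single peak of GABRQ, the θ subunit, lay 0.31 kb before the gene in low-copy sequence, and the other 8 were in high-copy sequence. The peaks of GABRA4, GABRP and GLRB lay downstream of the genes, that of GABRA4 at the edge of the 10 kb flank and inside another gene, COX7B2. Part of CHRNA7 has a near-identical copy elsewhere on chromosome 15. Both of its peaks had at least 1 stretch of 51 bases that is unique in the genome.

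By place, 26 of the 42 K450RK451R V5 peaks were in introns of the canonical transcript, 10 in the gene but outside that transcript, 4 in the flanks and 2 in exons. The same split over the whole list is not given here, so these counts only describe the 42 peaks. Summits within 1 kb of a start were found at 6 of 56 genes, among them CHRNB2, GABRA2, GRIA2, GLRA1 and GABRQ, beside 5.08% of all protein-coding genes and 3.88 genes from those of like length. For EHMT1 such a summit was found at 4 of 56 genes, among them CHRNB2, GRIA2 and GLRA1, beside 0.536% of all protein-coding genes and 0.457 genes from those of like length.

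The share of summits over RE1 at these genes was higher in the EHMT1 list than in the K450RK451R V5 list. No test between the lists was made, and they also differ in their share of high-copy windows. In low-copy windows at these genes alone, RE1 was in 7 of 8 for EHMT1 and in 3 of 7 for K450RK451R V5 (42.9%, 15.8% to 75.0%). The intervals of these 2 shares overlap. Over the low-copy windows of the whole lists, RE1 was in 43.3% of 941 for EHMT1 and in 2.85% of 3372 for K450RK451R V5. Of the EHMT1 peaks at receptor channel genes, 7 of 8 held RE1 (87.5%, 95% interval 52.9% to 97.8%), 6 of them with no mismatch. The share was 51.2% for EHMT1 peaks at protein-coding genes, 23.97% for the whole list and 0.204% for windows 1 kb away. The centre of the element lay between −49 and 32 bases from the summit, counted along the plus strand. Of the K450RK451R V5 peaks, 5 of 42 held RE1 (11.9%, 5.19% to 25%), beside 1.18% at protein-coding genes, 1.00% in the whole list and 0.251% in windows 1 kb away. Counted by gene, 6 receptor channel genes had an EHMT1 peak with RE1, beside 1.52% of protein-coding genes and 1.44 genes from those of like length, and 5 had a K450RK451R V5 peak with RE1, beside 0.595% of protein-coding genes and 0.408 genes.

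High-copy windows, which hold a stretch of 25 bases found at least 100 times in the genome, made up 35 of the 42 K450RK451R V5 peaks at receptor channel genes (83.3%, 69.4% to 91.7%). The share was 75.1% at protein-coding genes, 77.2% in the whole list and 34.6% in windows 1 kb away. None of the 8 EHMT1 peaks at these genes was high-copy (95% interval up to 32.4%), beside 11.5% of EHMT1 peaks at protein-coding genes, which lies inside that interval, and 46.2% of the list. With high-copy windows left out, 7 genes kept a K450RK451R V5 peak (among them GRIK3, CHRNB2, GABRA2, GRIA2, GLRA1 and GABRQ), beside 10.2% of all protein-coding genes and 8.47 genes from those of like length. The same 6 genes kept their EHMT1 peaks, beside 2.44% of all protein-coding genes. The part of repeated sequence in the calls was not tested.

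A MEF2-type string (CTAAAAATA) was found in 16 of the 42 K450RK451R V5 windows (38.1%, 25% to 53.2%), and every one of the 16 was high-copy. The share was 35.0% at protein-coding genes, 31.7% in the list and 3.21% in windows 1 kb away. Among high-copy windows alone, 45.7% at receptor channel genes held it, beside 41.0% in the list. None of the 7 low-copy windows at receptor channel genes held it, nor did any of the 3372 low-copy windows of the list. Of the promoters of all protein-coding genes, from 250 bases before to 50 after the canonical start, 0.502% held it. Over 15 of the stretches of 61 bases around the string, the identity of pairs, compared base by base with no gaps, ran from 55.7% to 100% with a median of 75.4%. The string itself is the same in all of them by the choice of stretches.

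E2F-type (TTTGGCGC or TTTCCCGC) and MYC-type (CACGTG) strings were in none of the 50 windows, which allows a share of up to 8.38% for K450RK451R V5 and 32.4% for EHMT1 by the Wilson interval. In the whole lists they were in 0.291% and 1.89% of K450RK451R V5 windows and in 0.343% and 1.60% of EHMT1 windows. Of the promoters of 55 receptor channel genes, that of GRIN3A held an E2F-type string, that of CHRNA7 a MYC-type string and none RE1, against 3.07%, 8.75% and 1.28% of 19540 protein-coding promoters. The absence of RE1 allows a share of up to 6.53% by the Wilson interval. The RE1 matches under the EHMT1 peaks of GLRA1, CHRNB2 and GRIA2 lay near the starts but outside these promoter windows.

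**Figure D4:**
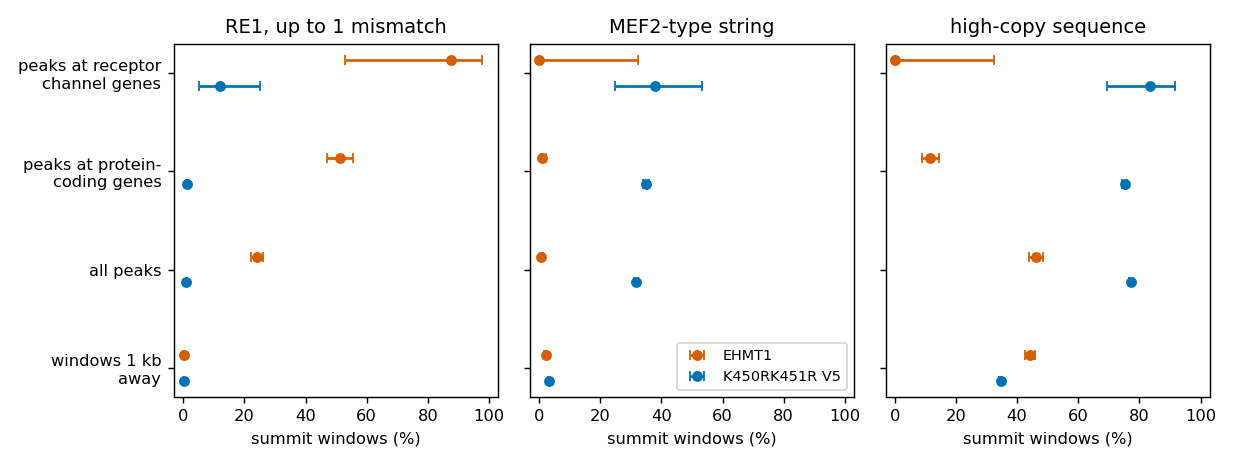
Share of summit windows, which reach 100 bases to either side (x axis, %), that hold RE1 with up to 1 mismatch, the MEF2-type string or high-copy sequence, with 95% Wilson intervals, in EHMT1 (orange) and K450RK451R V5 (blue). RE1 is in 87.5% of EHMT1 windows at receptor channel genes and in 23.97% of the list, and the MEF2-type string in 38.1% and 31.7% of the K450RK451R V5 windows.

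The RE1 matches were also counted from the genome side. The windows of 19 receptor channel genes held at least 1 match without a mismatch (33.9%, 95% interval 22.9% to 47.0%), beside 10.5% of all protein-coding genes and 9.59 genes from those of like length. There were 28 such matches. Of these, 6 lay under an EHMT1 peak (21.4%, 10.2% to 39.5%), beside 8.72% of the 2053 matches at protein-coding genes and 6.35% of 4046 in the genome. Also 6 lay under a K450RK451R V5 peak, beside 3.12% and 2.35%. Under a peak of either list lay 9 of the 28, beside 203 of the 2053 at protein-coding genes. Of the 167 matches with 1 mismatch at these genes, 1 was under an EHMT1 peak (0.599%), beside 0.546% of 24920 at protein-coding genes. Matches without a mismatch and with no peak in any list were found at further genes, among them GRIN1, GRIN2A, GRIN2B, GLRA3, GABRA6, GABRR1, GRIA4 and GRIK4. An intact element was thus called at some receptor channel genes and not at others, at this depth.

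The V5 lists of the WT, K450R and K451R lines had 0 peaks at the 56 genes, which allows a share of up to 6.42% by the Wilson interval. Over all protein-coding genes the shares were 0.362%, 0.382% and 0.575%, and genes of like length gave 0.380, 0.365 and 0.518 genes. H3K9me2 peaks were likewise at 0 genes in all 4 lines (in the order WT, K450R, K451R, K450RK451R), beside 0.536%, 0.590%, 0.923% and 0.803%, with 0.508, 0.584, 0.867 and 0.760 genes from those of like length. In lists this short, 0 is the whole number nearest to some of these sums and within 1 of all of them, so the absence of a peak is not a statement about these genes in particular. The nearest peak to any of the windows was that of CHRNA10 in the K451R V5 and all 4 H3K9me2 lists, 0.80 to 1.02 kb outside the flank. The summit window of that peak held 0 stretches of 51 bases that occur once in the genome, in each of these 5 lists.

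The depth bears on which peaks could be called. Over their genome-wide backgrounds the weakest calls of the WT, K450R and K451R V5 lists each needed 6 reads. The 42 K450RK451R V5 peaks at receptor channel genes had at most 11 reads. Scaled by the ratio of the backgrounds, they would have had 2.34 to 4.29 reads at the depth of the WT list and 2.94 to 5.38 at that of the K450R list, so 0 of 42 would have reached 6 reads in either. At the depth of the K451R list they would have had 3.74 to 6.85 reads, and 10 of 42 would have reached 6. None of the 42 peaks was shared with another V5 list, and 94.3% of the whole K450RK451R V5 list was not shared either. Differences in occupancy and in depth and threshold between the V5 lists cannot be told apart for these peaks. The 8 EHMT1 peaks at receptor channel genes, scaled the same way, would have had 6.85 to 17.4 reads at the K451R depth. All 8 would have reached 6 reads there, 4 at the K450R depth and 2 at the WT depth, and none was called. The EHMT1 list also differs in antibody, construct and drug, and the cause was not tested.

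Genes that work with these receptors were counted by lists of other ligand-gated channels, metabotropic receptors, scaffolds and auxiliary subunits, and enzymes and transporters of the transmitters. Of 15 other ligand-gated channels, 3 had an EHMT1 peak (HTR3A, a serotonin receptor, and P2RX3 and P2RX6, ATP receptors), where genes of like length gave 0.379. Of 15 metabotropic receptors, 4 had one, among them CHRM4, GRM2 and GRM8, against 0.835. Of 36 scaffolds and auxiliary subunits, 9 had one, against 1.44, and of 20 genes of synthesis and transport 4, against 0.538. CHAT and SLC18A3, which make and load acetylcholine and share a locus, shared 1 peak with a fold of 8.22 (4.98 to 12.9).

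The partner genes included folds above those of the channels. The EHMT1 peak of SHANK2, a scaffold of glutamate synapses, had a fold of 19.9 (15.2 to 25.5) and that of LHFPL4, which holds GABA-A receptors at synapses, 13.96 (9.57 to 19.7), both with an RE1 match without a mismatch. The highest, 30.3 at DLG2, had no RE1 match and lay in a gene that had a peak in all 9 lists. In the K450RK451R V5 list the counts were 2, 11, 15 and 5 genes, against 3.59, 7.65, 14.9 and 6.78.

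**Figure D5:**
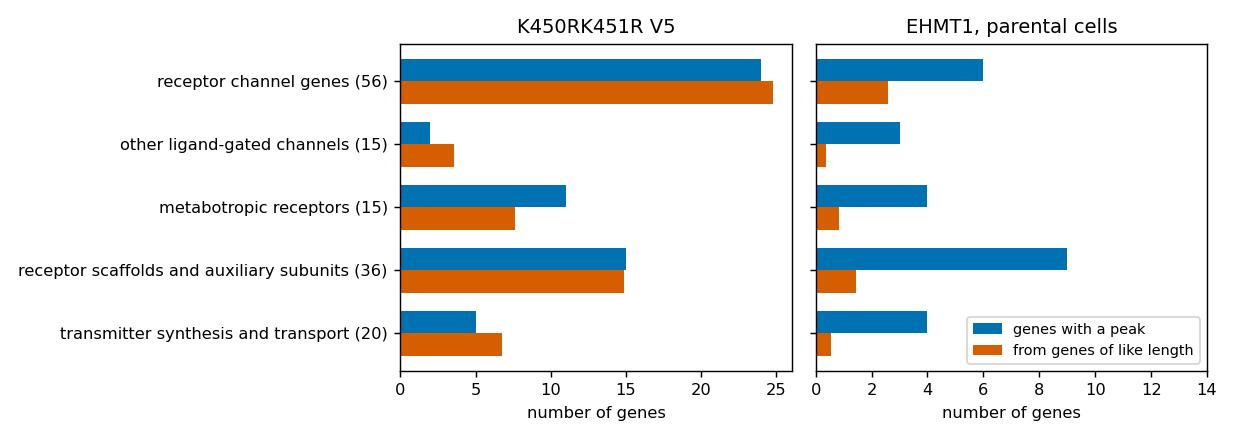
Number of genes with a peak (x axis) in the receptor channel genes and in 4 lists of partner genes, with the size of each list in parentheses, beside the number that other genes of like length give. For EHMT1 each observed bar (6, 3, 4, 9 and 4 genes) is longer than its partner, and for K450RK451R V5 the bar of the receptor channel genes (24) is close to it (24.8).

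The 32 receptor channel genes with no peak in any list included GABRA5, GABRA6, GABRD, GABRE, GABRG1, GABRR1, GABRR2 and GABRR3 among GABA-A subunits, GLRA2 and GLRA3 among glycine receptors, and GRIA3, GRIK4, GRIK5, GRIN1, GRIN2B, GRIN2C and GRIN3B among glutamate receptors, with GRIK1-AS2. The nicotinic subunits without a peak were CHRNA1, CHRNA2, CHRNA3, CHRNA4, CHRNA5, CHRNA6, CHRNA10, CHRNB1, CHRNB3, CHRNB4, CHRND, CHRNE and CHRNG. The nicotinic family, with a median gene length of 28.997 kb, had K450RK451R V5 peaks at 3 of 16 genes, and the AMPA family, with 316 kb, at 3 of 4. Over all protein-coding genes the share was 27.7%. In the bins of gene length that hold these medians, 23.2% and 73.7% of other genes had such a peak.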

How the data were processed

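ChIP-seq of 18 samples in 9 groups was represented by 1 narrowPeak list per group. Per the study's methods and the submitters' processing notes, 51-nt reads from single-end runs were aligned on hg19 with BWA 0.7.9a and SAMtools 1.2, checked with FastQC 0.11.9, and peaks were called with MACS2 2.1.0. The caller's settings, any input control and whether replicates were pooled are not given in the sources used here. The authors deposited for each peak a fold enrichment (a ratio to local background), −log10 p, −log10 q and the offset of the summit. The values per replicate were not analysed here.

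The stacked reads and the background were solved from each fold and −log10 p (a difference in −log10 p of up to 0.0002 was allowed), which succeeded for 22458 of 22458 peaks under the assumption that MACS2 adds 1 to both. Reads per list were estimated from the genome-wide background with a 100-bp extension and 2.7 Gb. A gene counted as occupied when a peak shared at least 1 bp with its body or 10 kb on either side (GENCODE 44 on GRCh37, whose chromosome lengths hold all peaks). Like-length sums used 10 bins of gene length. Shares carry 95% Wilson intervals and folds and densities 95% exact Poisson intervals. Windows with a stretch of 25 bases present at least 100 times were called high-copy, and stretches of 51 bases were counted genome-wide. Sequences are from the GRCh37 reference.

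Genes with an EHMT1 peak or peaks in at least 2 lists were described fully, then the 10 others with the highest K450RK451R V5 fold, and the rest by ranges. The members and gene lists were chosen with earlier results of these data known. Functions were tested on simulated data. Python 3.11.15, numpy 2.4.6, pandas 2.3.3, scipy 1.17.1, statsmodels 0.14.6, pysam 0.24.0, numba 0.67.0 and matplotlib 3.10.9 were used. Some results on individual genes and sequences are not reported here by name, and counts over lists include them.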

Additional observations from a re-analysis of the deposited data

How the results depend on the processing

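No paired analysis was possible because only 1 peak list per group was analysed, with no values per replicate, and for the same reason no replicate could be left out. Of 218 values recomputed under alternatives, 126 were counts of lists with 0 peaks at these genes, which alternatives that remove peaks or narrow windows could only leave at 0. Of the other 92, 64 stayed within 1.5 times the reported count or within the interval of the reported share. At a −log10 q of at least 5, 3 genes with 3 peaks kept a K450RK451R V5 peak, 9 genes had a peak in some list, and 0% of those 3 peaks held RE1. At a −log10 q of at least 10, K450RK451R V5 had 0 genes with 0 peaks and EHMT1 had 3 genes with 4 peaks, which leaves 3 genes in any list. With the 637 strongest peaks of each list, K450RK451R V5 had 0 genes with 0 peaks, EHMT1 1 gene with 1 peak and any list 1 gene. At a fold of at least 5, K450RK451R V5 had 13 genes with 20 peaks, of which 5% held RE1. Shares over all protein-coding genes and like-length sums are not given for these q, fold and equal-number settings. The counts there therefore do not show how receptor channel genes compare with other genes. Counting summits within 1 kb of a start left 6 genes with 6 peaks in K450RK451R V5, 4 peaks in EHMT1 and 6 genes in any list. Without high-copy windows (a setting added after the data were seen) K450RK451R V5 had 7 genes with 7 peaks (like-length sum 8.47), of which 42.9% held RE1, any list had 9 genes, and the like-length sums of H3K9me2 were 0.381 in the K450R and 0.505 in the K450RK451R line. The cause of these shifts was not tested beyond the smaller number of peaks that each alternative keeps. Gene bodies alone, summits inside the window, windows with a unique stretch, 20 length bins, the 200 nearest genes, the RE1 settings and the rules of overlap moved no value that far. The planned removal of soft-masked repeats was not run, since the reference used is not soft-masked. The reads at a summit, 6 to 11 for K450RK451R V5 at these genes and 13 to 33 for EHMT1, limit the folds.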
